A study of Mus musculus with 9 samples.

Results

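H3K27ac was compared between the 2 control libraries of mature adipocytes in this study, EC+/+ and Flox. H3K27ac, the acetylated form of lysine 27 of histone H3, marks promoters and enhancers in use. The members were all H3K27ac peaks of these libraries, 33713 in EC+/+ and 86834 in Flox, or 120547 of the 454996 peaks in the 9 deposited lists. A peak was called shared when at least 1 bp of it lay in a peak of the other list, and single when none did. Because the lists differ in size, every comparison was made with all peaks and again with equal numbers, that is, with the 33713 Flox peaks of highest −log10 q.

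EC+/+ mice were Ets1 ki/ki and carried a cassette in the Hipp11 locus with mouse Ets1 coding sequence and EGFP behind a floxed stop. Without Cre the cassette was present but not switched on. Flox mice were Ets1 f/f, with loxP sites around exons 2 to 7 of Ets1 and no Cre. Both lines were on C57BL/6J. The mice were males of 8 to 10 weeks, and the cells were the fraction of the inguinal white fat pad (iWAT, in the groin) that floats after collagenase and centrifugation. In the matched mutants, adipoq-cre, which acts in adipocytes, switched on the cassette (EA+/+) or removed the floxed exons (EAKO). H3K27ac was profiled by CUT&Tag, in which an antibody brings a transposase to the mark. Each group is 1 library, so no difference between groups could be tested, and the spread between animals is unknown. Values are peaks and their strength, −log10 of the q-value given by the peak caller, which depends on depth and background and was compared within a list or as a rank. Depth cannot be read from peak lists, but the sequencing totals stated in the study's methods record are nearly equal for both controls. How many of those reads were unique is not given in the sources used here.

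Mature adipocytes store triglyceride, and the nuclear receptor Pparg with the C/EBP factors keeps their genes active. The groin pad also holds stromal progenitors, endothelium, macrophages and a lymph node, and fragments of such cells can float with fat. Acetylation of promoters is widely shared between cell types, whereas acetylation of distal sites differs more from one type to the next. AP-1, the dimer of Fos and Jun proteins, binds TGANTCA (N is any base), marks many distal sites of fibroblast-like cells, and is also raised when cells are handled or stressed.

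The sequences below are examples from distal peaks, those over no promoter window (1 kb on each side of a transcription start of a protein-coding gene). Each is the 121 bases centred on the summit, the highest point of the peak, from GRCm38 (the build of the lists, mm10), plus strand, 5′ to 3′. Capitals mark AP-1 letters (TGANTCA) and GC box letters (GGGCGG or its reverse complement). Not every chromosome was searched for the sequences printed here, and strongest refers to the chromosomes searched. The first 3 are the strongest intronic or intergenic Flox peaks with no EC+/+ counterpart that hold AP-1 letters in a window without masked repeats. They lie in an intron of Cdc42bpb, a kinase of the actin skeleton (chr12:111353546-111353666, −log10 q 130), between genes 55282 bases from the nearest start, that of Slc45a1 (chr4:150707396-150707516, 100), and between genes 11341 bases from Mmp19, a matrix protease (chr10:128779509-128779629, 98.0).
Cdc42bpb intron, Flox: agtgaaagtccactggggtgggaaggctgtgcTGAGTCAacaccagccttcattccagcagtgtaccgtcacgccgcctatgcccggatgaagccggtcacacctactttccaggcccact
near Slc45a1, Flox: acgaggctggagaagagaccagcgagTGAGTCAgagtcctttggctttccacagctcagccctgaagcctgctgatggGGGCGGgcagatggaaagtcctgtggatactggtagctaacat
near Mmp19, Flox: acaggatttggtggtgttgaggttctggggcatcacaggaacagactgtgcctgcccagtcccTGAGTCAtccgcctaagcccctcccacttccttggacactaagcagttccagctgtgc
All 3 of these peaks also overlapped EAKO H3K27ac (106, 81.4 and 89.5) and Flox ATAC peaks, and the first and the second overlapped weak EA+/+ peaks (2.01 and 2.77).

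Stromal progenitors are the fibroblast-like cells from which adipocytes form. The next pair are the strongest such peaks at their genes on the chromosomes searched. The first lies in an intron of Twist2, a transcription factor of mesenchyme (chr1:91816799-91816919, 43.6), and the second in an intron of Fbn1, which encodes the matrix protein fibrillin (chr2:125349267-125349387, 35.6).
Twist2 intron, Flox: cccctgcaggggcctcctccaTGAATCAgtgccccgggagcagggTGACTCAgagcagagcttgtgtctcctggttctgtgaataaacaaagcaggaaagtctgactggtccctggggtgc
Fbn1 intron, Flox: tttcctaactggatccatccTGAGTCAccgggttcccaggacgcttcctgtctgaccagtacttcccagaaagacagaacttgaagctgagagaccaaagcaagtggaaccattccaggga
The last pair come from genes of adipocyte identity. The strongest shared distal peak there lay in an intron of the insulin receptor gene Insr (chr8:3221179-3221299, −log10 q 10.6 in EC+/+ and 48.8 in Flox). The strongest single EC+/+ peak there in a window without masked repeats lay in an intron of Mgll, a lipase that completes fat breakdown (chr6:88776747-88776867, 6.56), and overlapped no peak of Flox, EA+/+, EAKO or Flox ATAC.
Insr intron, shared: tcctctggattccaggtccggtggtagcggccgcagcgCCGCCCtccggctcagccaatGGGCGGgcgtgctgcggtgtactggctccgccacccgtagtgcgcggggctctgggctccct
Mgll intron, EC+/+: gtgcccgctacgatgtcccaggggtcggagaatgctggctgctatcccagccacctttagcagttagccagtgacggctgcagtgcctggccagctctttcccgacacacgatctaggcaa
The Insr window holds 2 GC boxes and no AP-1 letters, and the Mgll window holds neither.

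The control lists agreed at promoters and disagreed at distal sites. Of 33713 EC+/+ peaks, 20537 (60.9%, 95% interval 60.4 to 61.4) overlapped a Flox peak, and of 86834 Flox peaks, 19722 (22.7%, 22.4 to 23.0) overlapped an EC+/+ peak. Intervals here are Wilson intervals and cover counting error only. EC+/+ peaks covered 11.5 Mb at a median width of 273 bp, Flox peaks 41.2 Mb at 381 bp, and 7.47 Mb lay in both. With equal numbers, 41.7% of EC+/+ peaks (41.2 to 42.3) and 39.3% of Flox peaks (38.8 to 39.9) were shared. The weakest Flox peak kept had a −log10 q of 7.638, as had the strongest one left out, whereas EC+/+ peaks reached down to 1.30. Thus a gene with a weak Flox peak counts as without one at equal numbers.

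At equal numbers, 69.0% of shared EC+/+ peaks lay at a promoter, against 17.6% of single EC+/+ and 18.4% of single Flox peaks. Seen the other way, 73.8% of EC+/+ promoter peaks had a Flox partner, and 21.2% of distal ones. Single EC+/+ peaks were short and weak, with a median width of 228 bp and a median −log10 q of 3.11, and 10.8% were exonic. Single Flox peaks had a median width of 517 bp and a median −log10 q of 13.2, and 4.95% were exonic. Shared Flox peaks were the strongest, at a median of 26.0.

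Sharing rose with strength in both lists. Of the weakest 10% of EC+/+ peaks 33.8% were found in Flox, and of the strongest 10% of them 97.2%. For Flox peaks found in EC+/+ the shares were 7.83% and 70.0%. Strong distal Flox peaks remained the exception, since 33.0% of distal peaks in the strongest 10% of the Flox list had an EC+/+ partner, against 88.0% of its promoter peaks. Those same distal peaks were found in EAKO at 99.6%. Over 20597 overlapping pairs the strengths had a Spearman rho of 0.49, and over the 9293 pairs at distal EC+/+ peaks 0.26. Pairs of Flox and EAKO peaks had 0.79 (56576 pairs). These rho values describe peaks within libraries and are not a test.

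**Figure D1:**
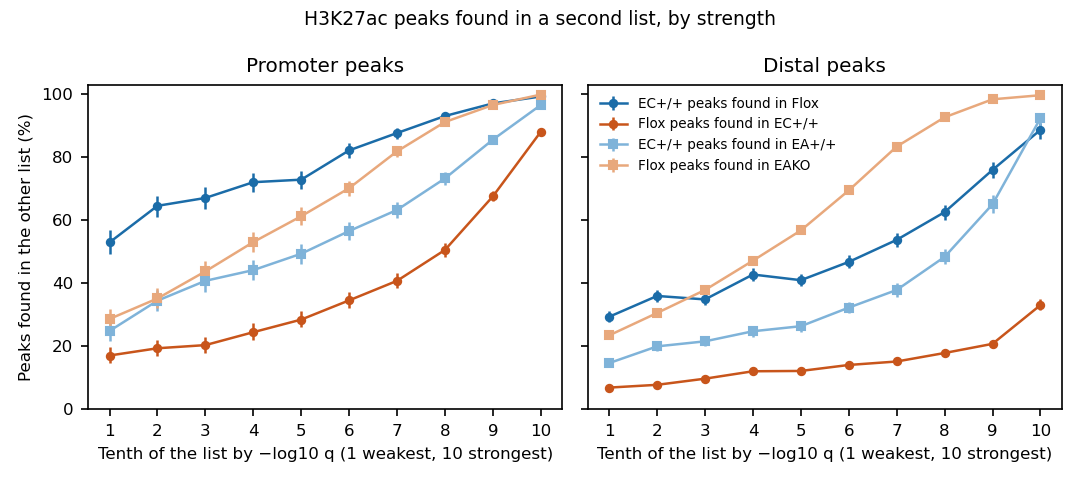
Share of peaks found in a second H3K27ac list (vertical axis, %, bars are 95% Wilson intervals) in 10 equal bins of the first list ranked by −log10 q, for promoter peaks (left) and distal peaks (right). In the strongest bin, promoter peaks reach 99.2% for EC+/+ in Flox and 88.0% for Flox in EC+/+, whereas 33.0% of distal Flox peaks are found in EC+/+.

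Among the 4 H3K27ac lists at equal numbers, the Flox list resembled EAKO far more than EC+/+. Of Flox peaks 79.7% were found in EAKO, 39.3% in EC+/+ and 35.7% in EA+/+. Of EC+/+ peaks 43.2% were found in EA+/+, 41.7% in Flox and 40.4% in EAKO, so EC+/+ overlapped the other 3 lists to a like degree. Of distal EC+/+ peaks 28.7% were found in EA+/+, 21.2% in Flox and 22.1% in EAKO. The lines and whatever their libraries share in preparation cannot be told apart here.

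Shared and single peaks differed in lists that were not used to define them. Of shared EC+/+ peaks, 91.2% (90.8 to 91.7) lay in Flox ATAC peaks, a measure of open chromatin in the same kind of cells. Of single EC+/+ peaks, 18.8% (18.3 to 19.4) did, and of single Flox peaks 92.5% (92.1 to 92.8). Single EC+/+ peaks were found in EA+/+ at 26.8% (26.2 to 27.4) and in EAKO at 28.7% (28.1 to 29.3). Single Flox peaks were found in EAKO at 91.8% (91.4 to 92.2) and in EA+/+ at 13.5% (13.1 to 14.0). The ATAC lists come from Flox and EAKO mice, so open sites particular to the knock-in line have no list here. With all peaks, 10.3% of single EC+/+ peaks and 57.6% of single Flox peaks lay in Flox ATAC peaks.

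Ets1 peaks also met shared and single peaks at different rates. Those of beige adipocytes grown from iWAT stromal cells overlapped 60.3% of shared and 3.76% of single EC+/+ peaks, and 66.9% of shared and 48.4% of single Flox peaks. Ets1 peaks of mature adipocytes from cold-stressed mice overlapped 42.9% of shared EC+/+ peaks, 6.99% of single EC+/+ peaks and 6.16% of single Flox peaks. The cultured stromal cells came from younger mice than the other libraries, and the cold-stressed mice were wild type.

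**Figure D2:**
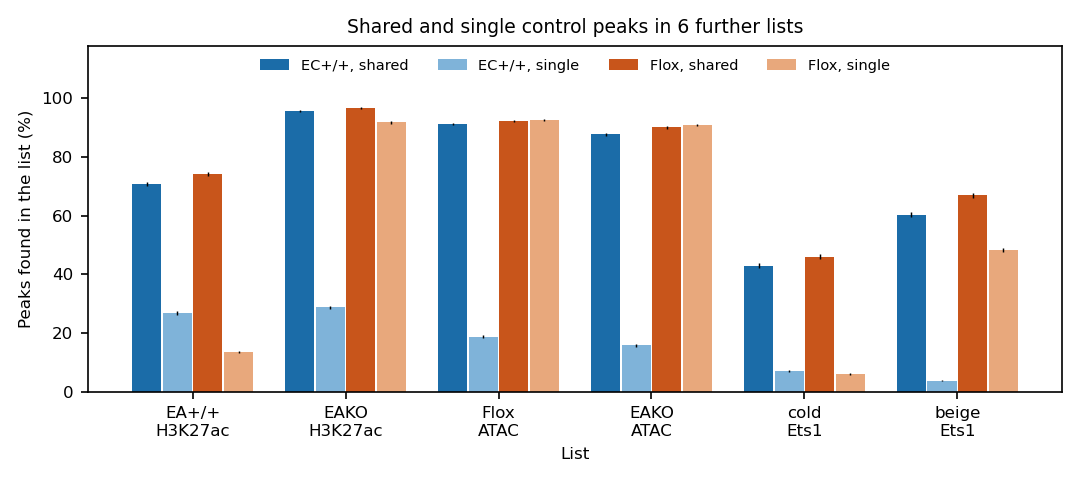
Share of shared and single control peaks (equal numbers) that overlap a peak of 6 further lists (vertical axis, %, bars are 95% Wilson intervals). Single Flox peaks are found in EAKO H3K27ac and both ATAC lists at over 90%, whereas single EC+/+ peaks stay under 30% in every list shown.

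The 5 Flox sequences printed above were chosen to hold AP-1 letters and the others were not, so the frequencies are given over all distal peaks. Within 150 bases of the summit, AP-1 letters stood in 41.8% of the 16678 single distal Flox peaks (41.1 to 42.6) and in 6.94% of the 16189 single distal EC+/+ peaks (6.56 to 7.34). Shared distal peaks lay between, with 20.9% at Flox summits and 14.8% at EC+/+ summits. Windows 5 kb away held the letters in 8.78% and 8.51% of the same single peaks. AP-1 letters were thus several times more frequent at single Flox summits than nearby, and slightly less frequent at single EC+/+ summits than nearby.

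The share rose with peak strength in Flox, from 12.3% of distal peaks in the weakest 10% of the list to 48.6% in the strongest 10%. In EC+/+ it was 9.13% and 5.31%. The mutant lists, which had no part in defining the classes, resembled their own line, with 12.7% and 47.7% in EAKO and 9.81% and 4.15% in EA+/+. Of distal peaks among the 33713 best of Flox ATAC 44.4% held the letters, and of distal peaks in the whole beige Ets1 list 35.9%. Single distal Flox peaks with the letters were found in EA+/+ at 6.72% and those without at 12.6%, with median −log10 q of 14.7 and 11.7. Single distal EC+/+ peaks that lay in Flox ATAC peaks had them at 9.95% (8.74 to 11.3, 2101 peaks). Single distal Flox peaks outside Flox ATAC had them at 16.0% (14.1 to 18.0, 1384 peaks). At promoters, 15.9% of single Flox summits had them, against 5.07% of shared Flox summits, 4.20% of single EC+/+ summits and 8.68% in windows 5 kb from the single Flox summits. With all Flox peaks kept, the shares were 24.5% of single distal Flox peaks and 6.58% of single distal EC+/+ peaks.

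**Figure D3:**
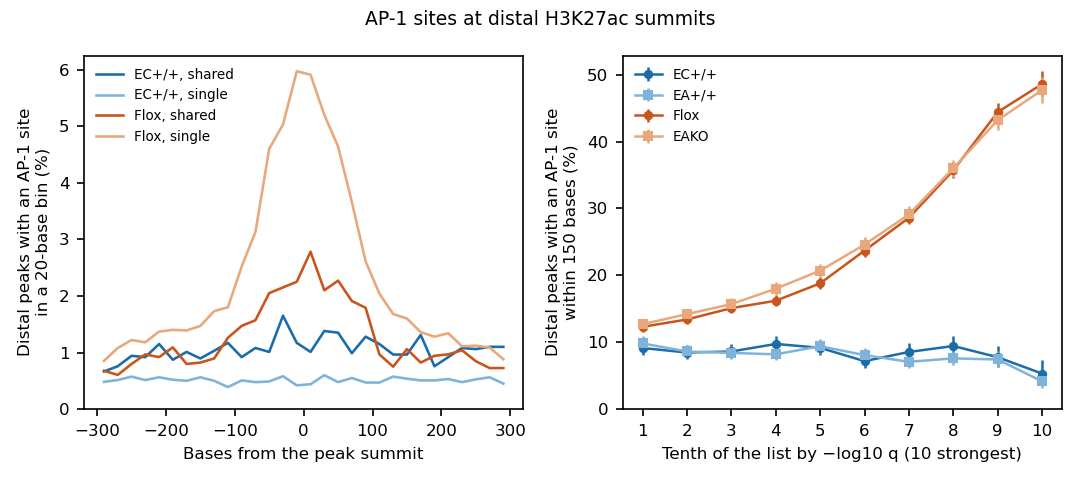
Left, share of distal peaks with AP-1 letters (TGANTCA, either strand) in 20-base bins by distance from the summit, for shared and single peaks at equal numbers. Right, share of distal peaks with AP-1 letters within 150 bases (bars are 95% Wilson intervals) in 10 equal bins of each list ranked by −log10 q. The Flox and EAKO curves climb to 48.6% and 47.7%, and the EC+/+ and EA+/+ curves stay under 10%.

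Of the other motifs searched, GC boxes (GGGCGG, bound by Sp1 and its relatives) stood at 58.6% of shared and 32.2% of single EC+/+ promoter summits, and at 44.8% of single Flox ones. The ETS letters CCGGAAGT were found at 4.86% of shared and 0.782% of single EC+/+ promoter summits, and at 6.55% and 4.09% of shared and single Flox ones, with 0.278% to 0.406% in windows 5 kb away. C/EBP letters (TTGCNNAA) stood at 13.0% of single distal Flox and 7.52% of single distal EC+/+ summits, with 12.1% and 11.3% in their windows 5 kb away. E-box letters (CACGTG), CREB letters (TGACGTCA) and the CTCF core AGGGGGCGC were found at under 9% of peaks in every class. EBF letters (TCCC and GGGA with 2 bases between), the NF1 palindrome (TTGGC and GCCAA with 5 bases between), the steroid receptor letters ACANNNTGT and a direct repeat of AGGTCA with 1 base between were also searched. The steroid receptor letters stood at 10.2% of single distal Flox and 10.0% of single distal EC+/+ summits, against 9.65% and 9.47% nearby. The EBF, NF1 and direct repeat letters were in under 2% of peaks of each class.

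Base composition set the classes apart as well. Shared promoter summits had a median of 23 CpG dinucleotides per 301 bases in EC+/+ and 24 in Flox, against 11 at single EC+/+ and 15 at single Flox promoter summits. Median GC content was 53.8% at single distal EC+/+ summits and 50.5% at single distal Flox summits, with 46.2% and 44.9% in their windows 5 kb away. Soft-masked repeats made up 18.2% of single distal EC+/+ windows and 11.2% of single distal Flox windows, against 26.8% and 27.1% nearby. In RefSeq promoters of GRCm38.p6 (250 bases before to 50 after the start), matched for 16505 of 21884 genes with a symbol of their own, AP-1 letters stood in 7.09% of all promoters. They stood in 6.20% of promoters of genes acetylated at equal numbers in Flox alone, and in 5.88% of those acetylated in EC+/+ alone. CpG counts in that table were 22 for genes acetylated in both, 18 for Flox alone, 14 for EC+/+ alone and 3 for neither.

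By gene, promoter acetylation was mostly common to the controls. Of 21938 protein-coding genes, 11400 (52.0%) had a promoter peak in EC+/+ and 14015 (63.9%) in Flox. Both lists held 10825 genes (49.3%), EC+/+ alone 575 (2.62%) and Flox alone 3190 (14.5%). At equal numbers, Flox held 11740 genes (53.5%), both lists 9785 (44.6%), EC+/+ alone 1615 (7.36%) and Flox alone 1955 (8.91%). These percentages are the background for the gene lists below. Those lists and their members were chosen with earlier results of these data known, so their order is a description and not a test. In lists outside the comparison, 79.1% (77.7 to 80.5) of the 3190 Flox-only genes had a promoter peak in EAKO and 88.2% in Flox ATAC. Of the 575 EC+/+-only genes 45.2% (41.2 to 49.3) had one in EA+/+, 17.2% in EAKO and 51.7% in Flox ATAC.

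The highest EC+/+-only genes were the predicted genes Gm10801 (−log10 q 110), Gm21738 (98.1) and Gm10720 (56.3). Predicted genes of this kind often lie in satellite-like sequence where many libraries show excess signal, and each had a stronger EA+/+ peak (142, 142 and 71.2). Zkscan7, a zinc finger gene (13.2), and Boll, a germ cell RNA-binding gene (13.0), followed, neither with an EA+/+ peak, though Zkscan7 had an EAKO peak (14.3). At equal numbers Gm10715, another predicted gene (18.5 in EC+/+ and 7.17 in Flox), came after Gm10720 and ahead of Zkscan7. The highest Flox-only genes were Slc35b1, a transporter of the endoplasmic reticulum (132), Lamtor1, which anchors nutrient signalling at the lysosome, with its neighbour Tomt (120, 1 peak), Mnt, a partner of Max (120), and the ubiquitin ligase Smurf1 (116). The same 5 led at equal numbers, and all 5 had an EAKO promoter peak of at least 58.0. Lamtor1 and Tomt had a weak EA+/+ peak (5.20), and Slc35b1, Mnt and Smurf1 had none. Within 3 kb of a start, however, Lamtor1, Tomt, Mnt and Smurf1 also had an EC+/+ peak, and Slc35b1 had none. Likewise, Zkscan7 had a Flox peak within 3 kb. The Flox peak of Smurf1 (chr5:144898440-144899105) lay inside the gene, away from its outermost start (chr5:144965847).

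Adipocyte identity genes were acetylated in both controls. This list leaned to EC+/+ at equal numbers, where weak Flox peaks are left out, and not with all peaks. Of its 36 members 25 (69.4%, 53.1 to 82.0) had a promoter peak in EC+/+ and 27 (75.0%) in Flox. At equal numbers Flox had 20 (55.6%, 39.6 to 70.5), and the intervals overlap. All genes gave 52.0% in EC+/+ and 53.5% in Flox at equal numbers. The median rank over all 36 members (percentile of −log10 q among the 33713 best, 0 without a peak) was 54.4 in EC+/+ and 34.8 in Flox, beside 13.6 and 23.3 over all genes. It was 35.5 in EA+/+ and 22.7 in EAKO, beside 0 and 10.5 over all genes. Of members in both, those named here and for the other lists were chosen by their rank within the whole of each list. Here they were Lipa, the lysosomal lipase (11.4 in EC+/+ and 68.4 in Flox), Insr (11.2 and 109), Acsl1, which activates fatty acids (10.9 and 46.1), and Tshr, the thyrotropin receptor (9.75 and 32.8). Pparg itself had 16.0 in EC+/+ and 30.3 in Flox, at percentiles 97.8 and 75.9 of the equal lists.

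Members with a peak in EC+/+ alone were Lep, the satiety hormone leptin (6.01, chr6:29064888-29065084), Plin1, the coat protein of the lipid droplet (4.65, chr7:79722617-79722869), and Car3, a carbonic anhydrase abundant in fat (3.87). All 3 had EA+/+ peaks (2.58, 6.59 and 5.75), and Plin1 and Car3 had weak EAKO peaks (1.91 and 3.10). The EC+/+ peaks of Lep and Plin1 lay at starts inside these genes, away from the outermost starts (chr6:29060220 and chr7:79732903). With 10 kb on each side, the Lep gene held 1 peak in each control, and Plin1 held 4 in EC+/+ and 3 in Flox. Equal numbers added Slc2a4, the insulin-driven glucose transporter (6.05 in EC+/+ and 2.74 in Flox), Cd36, a fatty acid importer (4.62 and 3.43), Retn, Rbp4 and Mgll, whose Flox peaks fell under the limit of equal numbers. Members with a peak in Flox alone were the triglyceride lipase Pnpla2 (28.1), its activator Abhd5 (24.3), the glycerol channel Aqp7 (13.4), the short-chain fatty acid receptor Ffar2 (3.43) and Fabp4 (2.64). Pnpla2, Abhd5 and Aqp7 had EA+/+ peaks of 2.48, 7.16 and 5.86. No promoter peak in either control stood at Adipoq, Cidec, Cfd, Gpd1, Pck1 or Ffar4, although these genes are known for high expression in fat. Promoter peaks were thus called at some defining adipocyte genes and not at others. With 10 kb on each side, Adipoq held 0 EC+/+ and 4 Flox peaks, and Cidec held 2 in each.

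The lipid synthesis list did not lean. Of 20 members 15 had a promoter peak in EC+/+ and 18 in Flox, 15 of them at equal numbers, with median ranks of 63.8 and 64.9. Tkt of the pentose phosphate pathway (10.7 in EC+/+ and 77.3 in Flox), Dgat2, which completes triglyceride (9.74 and 197), Acaca, which makes malonyl-CoA (8.30 and 46.2), and Me1, which supplies NADPH (6.84 and 29.4), were the named members in both. Mlxipl, the sugar-responsive factor ChREBP, was in EC+/+ alone (3.18). Fatty acid synthase Fasn (46.8), the elongase Elovl5 (20.4) and the desaturases Scd1 (19.6) and Scd2 (6.03) were in Flox alone.

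Thermogenic genes had 16 of 30 members in EC+/+ and 25 in Flox, 14 of them at equal numbers. Pdk4, a brake on glucose oxidation (13.0 and 35.1), Gk, glycerol kinase (6.79 and 89.6), Tnfrsf9, a beige marker (5.86 and 27.3), and Gatm of creatine synthesis (11.8 and 13.6) were named in both, the last at percentile 41.0 of the equal Flox list. Cited1 was in EC+/+ alone (4.09). The creatine transporter Slc6a8 (38.8), Fabp3 (16.0), the adipocyte factor Ebf2 (9.07) and creatine kinase Ckb (5.28) led in Flox alone. Ucp1, the uncoupling protein that makes heat, had 3.43 in Flox and no EC+/+ peak. The depot position list, mostly Hox and Tbx genes, had 10 of 15 members in EC+/+ and 12 in Flox, 10 at equal numbers. Hoxa7 (6.06 and 12.2), Tbx15 (5.14 and 18.0), Hoxc6 (4.92 and 26.4) and Hoxc4 (3.49 and 5.47) were in both, and Hoxb7 (15.7) and Hoxa9 (8.44) were in Flox alone.

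Stromal progenitor genes showed the widest gap at equal numbers among the 24 lists of named genes, though several other lists came near. Of 25 members, 12 (48.0%) had a promoter peak in EC+/+ and 23 (92.0%) in Flox, or 20 (80.0%) at equal numbers. All genes together gave 52.0%, 63.9% and 53.5%. The median rank of the members was 0 in EC+/+ and 56.2 in Flox, and it was 0 in EA+/+ and 47.8 in EAKO. Over all genes it was 13.6, 23.3, 0 and 10.5 in the same order. The surface proteins Cd55 (9.90 in EC+/+ and 40.1 in Flox), Cd34 (11.6 and 28.2) and F3 (7.71 and 51.0) and the growth factor receptor Pdgfra (12.9 and 19.8) were in both, so general progenitor markers were present in both controls. In Flox alone stood 11 members, led by Mfap5, a microfibril protein of fascia fibroblasts (42.7, chr6:122512930-122513731), Fn1, fibronectin (33.0), Fbn1 (28.3) and Prrx1, a mesenchymal factor (22.8). All 11 but Col3a1 had an EAKO promoter peak, and 9 of the 11 had no EA+/+ promoter peak, the exceptions being Fn1 (4.03) and Fbn1 (2.43). No member had a peak in EC+/+ alone with all peaks, and Pi16, a marker of early progenitors (5.96 in EC+/+ and 3.29 in Flox), did at equal numbers. With the 10000 strongest peaks of each list the gap was smaller, with 6 members in EC+/+ and 8 in Flox, beside 13 and 9 for adipocyte identity. At equal numbers the gap was nearly as wide for immediate early and stress genes (70.8% and 100%) and cell cycle genes (73.3% and 100%). So it was for interferon response (40.0% and 66.7%) and ubiquitous genes (75.0% and 100%), all described below. With all peaks the interferon gap was wider (40.0% and 93.3%) than that of progenitor genes.

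Distal peaks in the gene regions (gene body and 10 kb on each side) of stromal progenitor and adipocyte identity genes differed in the same direction at equal numbers. Stromal progenitor regions held 16 EC+/+ peaks and 57 Flox peaks at equal numbers, a ratio of 3.56, whereas all genes together gave 0.872. The mutant lists held 18 in EA+/+ and 54 in EAKO. Fbn1 alone had 17 of the 57 Flox peaks and none in EC+/+, and 18 of the 25 members had more Flox than EC+/+ peaks. Of the 57 Flox peaks 52 lay in Flox ATAC peaks. Adipocyte identity regions held 42 EC+/+ and 28 Flox peaks at equal numbers, a ratio of 0.667, with 45 in EA+/+ and 33 in EAKO. Mgll held 6 and 1 of these control peaks, and Acsl1 held 4 and 1. The ratio was lower still for some other lists, among them ubiquitous (0.529) and cell cycle genes (0.444). Immediate early and stress regions, whose promoters are described below, went against those promoters, at 37 EC+/+ and 27 Flox peaks (0.730). With all peaks adipocyte identity regions held 42 EC+/+ and 102 Flox peaks, and stromal progenitor regions 16 and 116, beside 17912 and 51601 over all genes. The larger count for adipocyte identity thus passed to Flox, as it did over all genes (17912 and 15623 at equal numbers). Of the 42 EC+/+ peaks 11 lay in Flox ATAC peaks, and of the 28 Flox peaks at equal numbers 26 did.

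**Figure D4:**
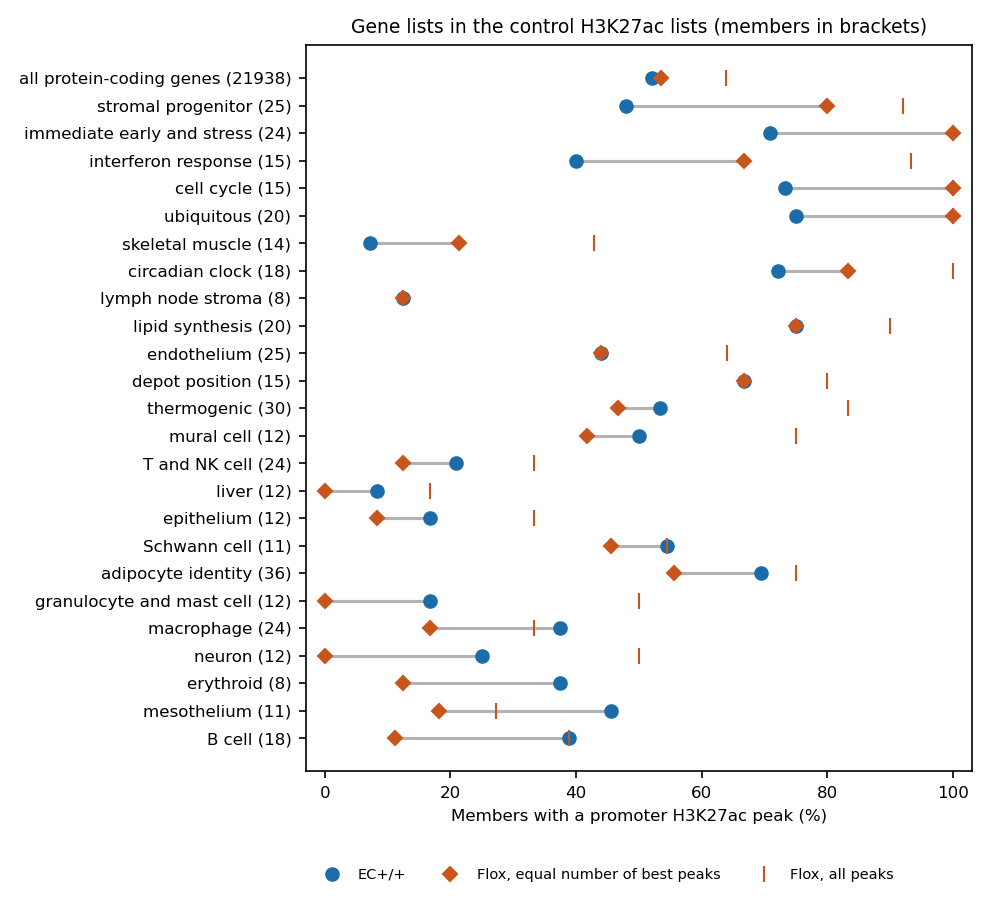
Share of the members of 24 gene lists, and of all protein-coding genes (top), with a promoter H3K27ac peak in EC+/+ (circles), in the equal number of best Flox peaks (diamonds) and in all Flox peaks (ticks). Numbers of members are in brackets, and lists are ordered by the difference at equal numbers, with stromal progenitor genes widest to the side of Flox (48.0% and 80.0%).

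Genes that respond within minutes to stimulation or handling were acetylated throughout Flox. All 24 immediate early and stress genes had a Flox promoter peak, also at equal numbers, and 17 (70.8%) an EC+/+ peak. Median ranks were 54.4 in EC+/+ and 72.9 in Flox, with 34.9 in EA+/+ and 78.1 in EAKO. Jun, an AP-1 subunit (8.84 and 30.8), Myc (10.1 and 28.2), Egr2 (6.80 and 18.8) and Atf3 (6.62 and 24.4) were among those in both. The 7 members in Flox alone included Klf6, an early growth factor response gene (80.7, chr13:5860785-5861766), Zfp36, which destabilises cytokine messages (43.7), Fos, the partner of Jun in AP-1 (41.7, chr12:85473401-85474458), and Btg2 (31.6). Fos, Zfp36 and Hspa1a had no EA+/+ peak, and all 7 had an EAKO peak.

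Genes of general use behaved likewise, so the immediate early genes did not stand alone. Of 20 ubiquitous genes 15 were acetylated in EC+/+ and 20 in Flox, also at equal numbers, with Eef2 (41.5), Ubb (30.6), Polr2a (28.8) and Ppia (18.5) leading the Flox-only members. Among those in both were Sdha (16.3 and 94.5), Eef1a1 (11.6 and 59.3) and B2m (9.85 and 44.8). Of 15 cell cycle genes 11 were acetylated in EC+/+ and 15 in Flox, led in both by Aurka (17.0 and 86.1), Ccna2 (8.42 and 59.0) and Cdk1 (5.98 and 35.8). Of 18 clock genes 13 were acetylated in EC+/+ and 18 in Flox, 15 at equal numbers. Rora (11.2 and 29.7), Nr1d2 (8.62 and 151) and Bhlhe40 (7.33 and 72.1) were in both, and Per3 (40.5), Nr1d1, the repressor Rev-erb alpha (38.7), Ciart (33.3) and Dbp (19.7) in Flox alone. Interferon response genes had 6 of 15 in EC+/+ and 14 in Flox, 10 at equal numbers, with Stat2 (4.67 and 34.7) and Irf9 (4.33 and 37.4) among those in both, and Ifit1 (25.5), Gbp2 (18.9) and Bst2 (18.9) in Flox alone.

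**Figure D5:**
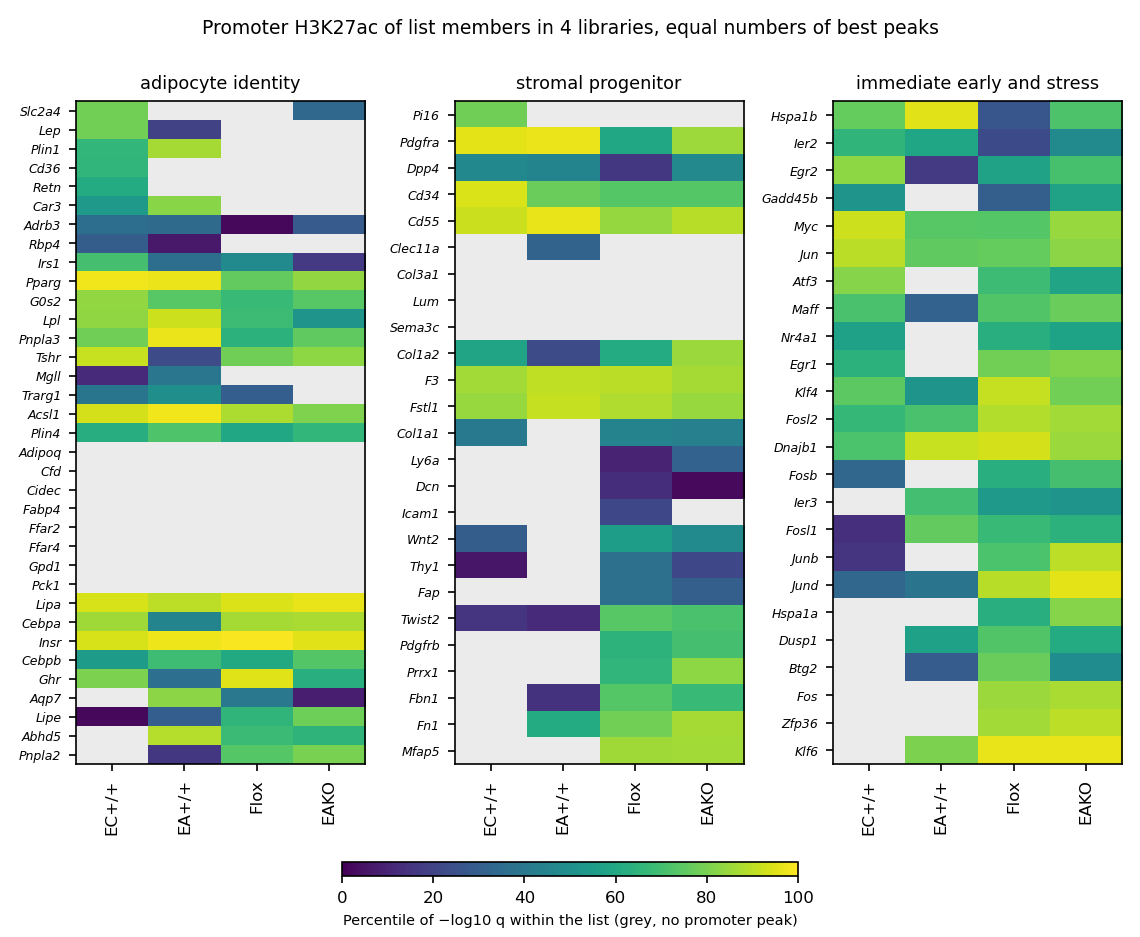
Rank of the promoter H3K27ac peak of members of 3 gene lists (35 of 36 for adipocyte identity) in the 4 libraries (colour, percentile of −log10 q within the 33713 best peaks of each list, grey without a promoter peak among them), genes ordered by Flox minus EC+/+. The lower rows of the stromal progenitor panel, from Pdgfrb to Mfap5, are grey in EC+/+ and ranked in Flox and EAKO, while Lep and Plin1 are ranked in EC+/+ and EA+/+ and grey in Flox and EAKO. The EC+/+ peaks of Lep and Plin1 lie at starts inside these genes.

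At equal numbers, where weak Flox peaks are left out, lists for other cells of the pad had no fewer members in EC+/+ than in Flox. Skeletal muscle was the exception. The olfactory receptor list described below also had more in EC+/+ at equal numbers (16 and 3). With all peaks Flox had more for T and NK cell, endothelial, mural and skeletal muscle genes, and EC+/+ more for macrophage and mesothelial genes. Macrophage genes had 9 of 24 members in EC+/+ and 8 in Flox, 4 at equal numbers. Mertk, a receptor for dead cells (11.8 and 16.5), and Cd14 (10.7 and 19.6) were in both, Cd163 (7.33), Aif1 (4.81), Adgre1 (3.00) and Tyrobp (2.26) in EC+/+ alone, and Trem2 (9.34) in Flox alone. The defining markers Cd68, Itgam, Mrc1, C1qa, C1qb and C1qc had a peak in neither. B cell genes had 7 of 18 in each, 2 of them at equal numbers in Flox, with Cr2 (3.28), Pou2af1 (3.28) and Cd79a (3.09) in EC+/+ alone, and Ms4a1 (5.11) and Pax5 (4.46) among those in Flox alone. T and NK cell genes had 5 of 24 and 8, 3 at equal numbers, and Cd3d, Cd3e, Cd3g, Cd4 and Cd8a had none in either. Lymph node stroma had 1 of 8 in each.

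Endothelial genes had 11 of 25 in EC+/+ and 16 in Flox, 11 at equal numbers. Esam (4.54 and 11.7) and Kdr, the receptor for VEGF (4.05 and 15.1), were in both, Nos3, which makes nitric oxide (6.44), in EC+/+ alone, and Tek (17.7), Ecscr (13.1) and Pecam1 (10.4) in Flox alone. Mesothelial genes had 5 of 11 in EC+/+ and 3 in Flox, 2 at equal numbers, with Lrrn4 in EC+/+ alone (11.0, chr2:132879165-132879921; EA+/+ 7.94 and EAKO 6.21) and Krt19 in Flox alone (11.8). Within 3 kb of a start, Lrrn4 also had a Flox peak. Mural cells had 6 of 12 and 9, 5 at equal numbers, with Acta2, smooth muscle actin, at 2.88 and 51.4. Schwann cells had 6 of 11 in each, 5 at equal numbers, among them the myelin gene Mbp (7.79 and 12.5). Skeletal muscle had 1 of 14 and 6, 3 at equal numbers, with Actn3 in both (5.15 and 51.3) and Mylpf in Flox alone (21.8).

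Of 1134 olfactory receptor genes, which are mostly silent outside the nose, 16 had an EC+/+ promoter peak and 23 a Flox peak, 3 at equal numbers. Lists of cells far from fat reached the shares of some lists of the pad. Granulocyte and mast cell genes had 2 of 12 and 6, 0 at equal numbers, epithelium 2 of 12 and 4, 1 at equal numbers, and erythroid genes 3 of 8 and 1. Liver genes had 1 of 12 and 2, and neuron genes 3 of 12 and 6, both 0 in Flox at equal numbers. The part of other cells, of handling and of library quality in these differences was not tested, and fewer cells of a type cannot be told apart from less acetylation per cell.

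Neither control carried Cre, so H3K27ac at Ets1 is no check of their labels. The Ets1 gene carried 5 EC+/+ and 18 Flox peaks, with its promoter peak in both (3.15 and 49.6, chr9:32695476-32696477 in Flox). An EC+/+ peak on an Ets1 exon (2.07, chr9:32755638-32755841) had no Flox partner, and whether it came from the cassette cannot be told apart from the gene itself. Eif4enif1 and Drg1, which flank the Hipp11 site, had promoter peaks in both controls. All mice were male, and of the Y-linked genes Ddx3y, Uty, Eif2s3y and Kdm5d the first 3 had a Flox promoter peak and none had an EC+/+ peak. The Y chromosome held 9 peaks in each list. On the X chromosome 82.6% of the 357 EC+/+ peaks were shared, against 58.0% to 66.4% on the autosomes. Xist had no promoter peak in either.

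The strongest shared distal peaks lay mostly in repeats. The first 5, 87.4% to 100% masked at the summit, were on chromosomes 17, 11 and 12, led by chr17:13552128-13553146 (2166 in EC+/+ and 1486 in Flox), and they had EA+/+ and EAKO peaks as well. The sixth was on chromosome 1 (244 and 374), 64999 bases from Cr2. The 4 strongest single EC+/+ distal peaks, led by chr9:3002027-3002236 (176) in Gm10722, were likewise mostly repeat, and all 4 had a stronger EA+/+ peak and no EAKO peak. Of single Flox distal peaks the 4 strongest lay in Cdc42bpb (130), near Iqgap1, a scaffold of the cell cortex (129), in Il1rl1, the receptor for interleukin 33 (129), and in Fbln2, a matrix protein (116). All 4 held AP-1 letters, had EAKO peaks of 106 to 121, and had no EA+/+ peak except the one in Cdc42bpb.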

How the data were processed

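Per the labels and the study's methods, the authors trimmed read pairs with trimmomatic, aligned them with BWA to mm10 and ran MACS2 peak calling per library at a q-value under 0.05. SAMtools, deepTools and DESeq2 are also named in the submitters' processing notes. For the MACS2 runs, a control library is not given in the sources used here, nor is a filter on excess-signal regions. The deposited lists hold a score, a fold enrichment over local background (a ratio), −log10 of the p-value, −log10 of the q-value and the summit offset. The authors' values were used to rank and filter.

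Overlaps were computed in Python 3.11.15 with numpy 2.4.6 and pandas 2.3.3, and checked on simulated intervals against bedtools 2.31.1. Promoters were 1 kb on each side of 93513 starts of 21938 protein-coding genes (GENCODE M21). Order of place was promoter, exon, intron, intergenic. Repeats are the lower-case bases of GRCm38.p6. Wilson 95% intervals came from counts. Each group is 1 library, so there is no test and no n beyond 1. The 25 gene lists were chosen, as were the members, with earlier results of these data known. Named genes were, per list, up to 4 in both (highest lower percentile) and up to 4 in each alone (highest −log10 q), with the 5 highest over all genes, the 6 strongest shared and 4 strongest single distal peaks, and the check genes; other members were named after their values were seen, and some that the rule names are not reported here. Alternatives changed the number of peaks, the ranking, the q-value, the overlap, the promoter window and the chromosomes. The study states a sequencing total per library, nearly equal in both controls. These totals were not used in any value, and the peak lists hold no read counts.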

Additional observations from a re-analysis of the deposited data

How the results depend on the processing

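The shares of peaks that the controls have in common (60.9% of EC+/+ and 22.7% of Flox peaks) depend on how many Flox peaks are kept. They were 41.7% and 39.3% at equal numbers by −log10 q, 40.4% and 38.1% by fold enrichment, 26.9% and 58.6% when the best Flox peaks covered the same length as EC+/+, and 68.2% and 20.5% at a q-value of 0.001. Asking for 50% of the peak gave 56.9% and 14.1%, and joining peaks within 1 kb raised the Flox share to 24.4%. Genes in EC+/+ alone (575) and in Flox alone (3190) became 1615 and 1955 at equal numbers, 1779 and 1917 by fold enrichment, and 3615 and 958 at equal length, where the direction turned. Further alternatives were chosen after seeing the data. Without peaks in repeats the EC+/+ share was 61.9%. With the 10000 best of each, the shares were 49.6% and 48.5%, with 5044 genes in both, 2000 in EC+/+ alone and 2106 in Flox alone. AP-1 letters within 50 bases of the summit stood in 23.5% of single distal Flox and 2.40% of single distal EC+/+ peaks. Leaving out chromosomes X and Y moved no share or gene count beyond its interval or 1.5 times. No paired analysis was possible because each group is 1 library and the result comes from no test. Leaving out a replicate was not possible either.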
